A study of Macaca mulatta with 4 samples.

Results

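Genes of the FGF, Nodal, BMP and WNT signalling pathways were followed in the RNA of rhesus macaque (Macaca mulatta) morulae that carried chromosomes of a single parental origin. The 48 genes, written here as members, comprise 13 of the FGF pathway, 10 of the Nodal pathway, 11 of the BMP pathway and 14 of the WNT pathway, and include ligands, receptors, intracellular transducers, inhibitors and target genes. They were taken by symbol from a table of 21314 Ensembl macaque genes, in which 38 of the 48 had an identifier. FGF4, FGFR4, DUSP6, GDF3, TDGF1, BMP2, SMAD7, WNT5A, FZD5 and AXIN2 could not be matched by symbol and are left aside.

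The series compares androgenetic (AG) embryos, whose nuclear genome is of paternal origin, with gynogenetic (GG) embryos, whose nuclear genome is of maternal origin. Both groups were sampled at the morula stage, the compacting ball of cells that precedes the blastocyst, with 2 RNA-seq libraries each, and no biparental embryos were analysed here. How the embryos were produced is not described in the labels beyond the names of the 2 institutions that made them, and the parental origin of the RNA was not checked here. Neither the number of embryos behind a library nor separate parents for the replicates is stated clearly, and p-values therefore reflect the spread of these libraries, part of which may be technical. No molecular identifiers are named, so intervals and limits from counts cover counting error alone.

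All 4 pathways carry a signal from a secreted ligand to the nucleus. FGF ligands bind receptor tyrosine kinases that recruit the adaptors FRS2 and GRB2, activate the RAS and ERK kinases and induce genes such as SPRY2, SPRY4, ETV4 and ETV5, and in the mouse blastocyst this pathway directs inner cells to primitive endoderm. Nodal and BMP ligands bind paired serine/threonine kinase receptors. Nodal and activin signals pass through SMAD2 and SMAD3, BMP signals pass through SMAD1 and SMAD5, both share SMAD4, and the ID genes are classic BMP targets. WNT ligands bind Frizzled receptors with LRP5 or LRP6, which stops a complex of AXIN1, APC and GSK3B from marking beta-catenin (CTNNB1) for destruction, and beta-catenin then acts with TCF factors on target genes.

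Total estimated counts ranged from 14129608 to 29733977 per library, with both AG libraries below both GG libraries. Spearman's rho over the 13227 genes tested was 0.931 for the AG pair, 0.968 for the GG pair and 0.803 to 0.858 across groups. The pluripotency gene POU5F1 was present at 181 to 479 CPM in the 4 libraries, where CPM are counts per 1000000 of a library's adjusted total. Markers of 3 cell types differed in sum between the groups. The 7 matched trophectoderm markers of 10 summed to 126 and 152 CPM in AG and to 402 and 780 CPM in GG, with GATA2 at 0 in AG. Of these 7, 4 were higher in GG with edgeR and 0 were higher in AG, and TFAP2C, which was not called, stood at 104 and 110 CPM in AG and 48.1 and 61.7 CPM in GG. The 7 matched epiblast markers of 8 summed to 519 and 534 CPM in AG and to 1165 and 1505 CPM in GG, but their members did not all move one way. With edgeR 3 were higher in GG, among them DPPA2, and 2 were higher in AG, namely KLF17 (18.8-fold) and DPPA4 (3.95-fold). Primitive endoderm markers, 6 matched of 7, summed to 130.4 and 184 CPM in AG and to 125 and 139 CPM in GG, and these sums overlapped. PDGFRA gave 116 and 154 CPM of the AG sums and 93.3 and 115 CPM of the GG sums. Of the 5 tested, 1 was higher in GG and 0 were higher in AG. This was APOA1, with 0 and 1 counts in AG and 26 and 198 counts in GG (edgeR adjusted p = 0.0407). The 5 matched blood markers of 6 summed to 68.5 and 146 CPM in AG and to 12.3 and 14.6 CPM in GG, with PTPRC giving 65.9 and 141 CPM of the AG sums, and CD3E at 0 in both GG libraries. Cumulus and sperm markers, 4 matched of 7 and 5 matched of 6, stayed below 1 CPM in sum in every library, and FSHR, PRM2, TNP2 and ODF1 were at 0 throughout. The part of these markers in the results below was not tested, and in whole embryos fewer cells of a type and less RNA per cell cannot be told apart.

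Of the 38 matched members, 32 had enough reads to be tested. At an adjusted p under 0.05 in edgeR's quasi-likelihood test over all genes, SMAD3 and TCF7L2 were higher in GG, GRB2 and ID1 were higher in AG, and the remaining 28 were not called. These are transducers of the Nodal and WNT pathways, an adaptor of receptor tyrosine kinases and a BMP target. The count of 4 in 32 stands beside 12.9% of all tested genes called, 6.34% higher in GG and 6.58% higher in AG, so members were called at about the rate of all genes. Their log2 fold changes, given throughout as GG minus AG, ran from -3.97 to 5.56 with a median of -0.10, against a median of 0.04 over all tested genes. Both libraries of one group lay above both of the other in 24 members, 12 in each direction. These 24 of 32 stand against 64.1% of all tested genes, of which 33.4% had both GG libraries above and 30.7% had both AG libraries above. With DESeq2, 5 members were higher in GG and 4 were higher in AG, or 9 of 35 against 23.3% of all genes (11.3% and 11.9% in the respective directions). The other fits with edgeR called 5 of 37 members with no filter on low counts (14.3% of all genes), 2 of 15 above a mean of 10 CPM (20.5%), 4 of 32 with the replicate number as a block (12.8%), 5 of 34 without AG replicate 1 (15.7%) and 7 of 34 without AG replicate 2 (26.7%). Without GG replicate 1 or 2, edgeR called 0 of 35 and 0 of 34 members, beside 0.851% and 0.602% of all genes, and 5 and 4 members had an unadjusted p under 0.05, against 17.2% and 16.1% of all genes. Of the 6 untested members, FGF2 had 0 counts in all 4 libraries, and NODAL, LEFTY2, ACVR1B, WNT7A and FZD7 had few.

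**Figure D1:**
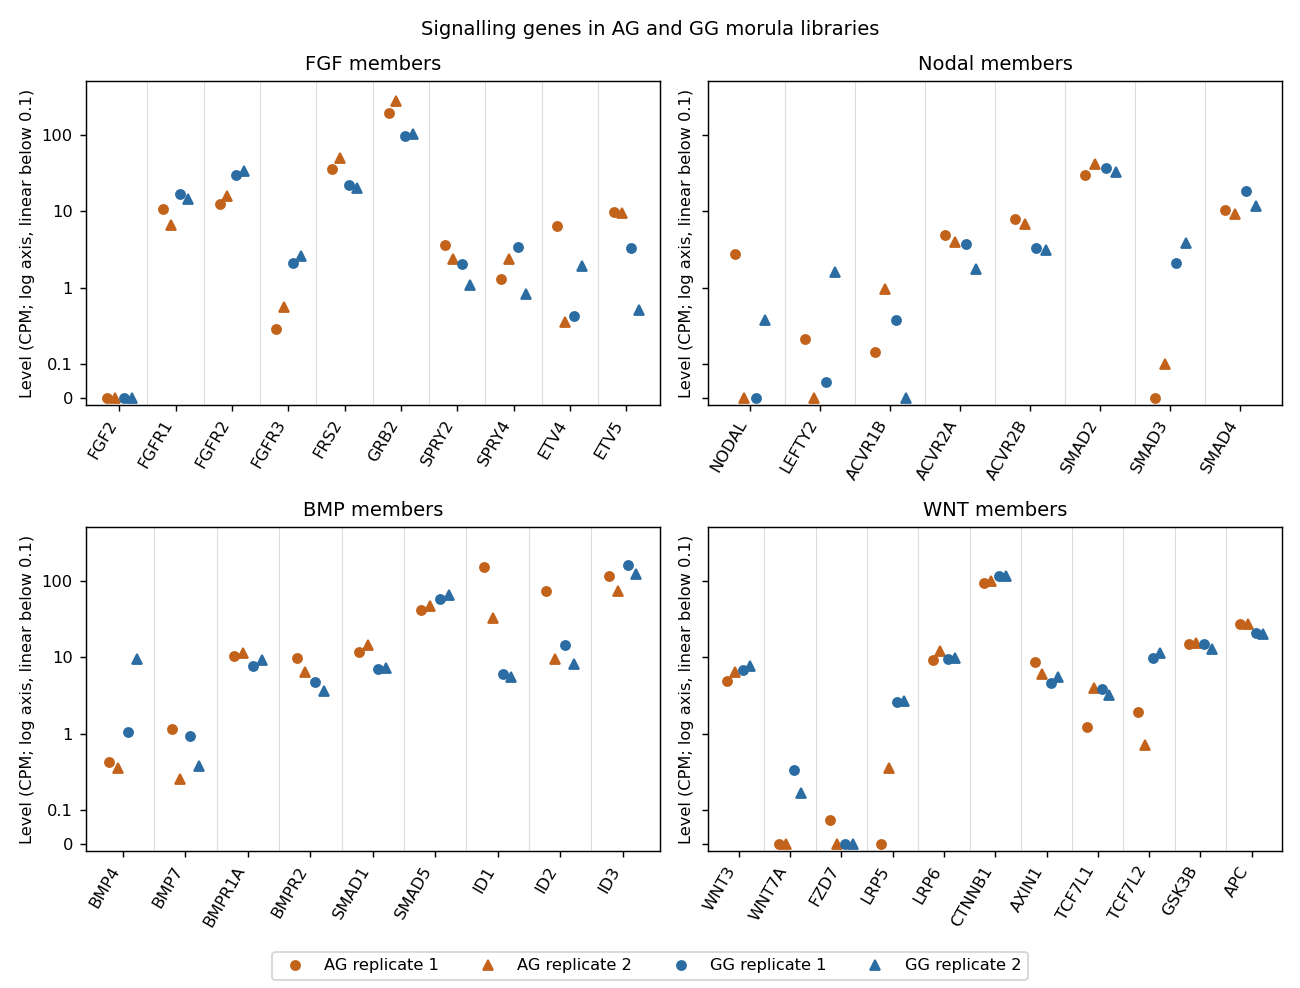
Level of each of the 38 matched members in each library, in CPM on a log axis that is linear below 0.1, with AG libraries in orange and GG libraries in blue (circles, replicate 1; triangles, replicate 2). SMAD3, TCF7L2 and LRP5 are low in both AG libraries, ID1 is low in both GG libraries, and CTNNB1, SMAD2 and GSK3B lie close together in all 4.

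In the FGF pathway, 9 of 10 matched members were tested, 1 was higher in AG and 0 were higher in GG. FGF2, a ligand that sustains primate pluripotent cells in culture, was not detected, and 0 counts allow a level of up to 0.0890 CPM in AG and 0.0595 CPM in GG. No receptor gene was called. FGFR1 stood at 10.7 and 6.55 CPM in AG replicates 1 and 2 and at 16.5 and 14.3 CPM in GG replicates 1 and 2. FGFR2 stood at 12.5 and 15.6 CPM in AG and at 29.7 and 33.1 CPM in GG, and FGFR3, the sparsest, at 0.285 and 0.559 CPM in AG and 2.09 and 2.56 CPM in GG. For all 3 receptors both GG libraries lay above both AG libraries, as in 33.4% of all tested genes. Their log2 fold changes were 0.84 ± 0.44 SE, 1.16 ± 0.34 SE and 2.43 ± 0.76 SE. None of the 3 passed over all genes with edgeR (adjusted p = 0.253, 0.0788 and 0.0917). FGFR2 passed without AG replicate 2 (edgeR adjusted p = 0.0435) and with DESeq2 (adjusted p = 0.0247), where 23.3% of all genes were called.

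Of the intracellular adaptors, GRB2 was higher in AG and FRS2 was not called. GRB2 (ENSMMUG00000004756), which links activated receptors to the RAS exchange factor SOS, stood at 194 and 272 CPM in AG and at 96.1 and 102 CPM in GG. The lower AG library was still above both GG libraries, and the difference was 2.35-fold (log2 change -1.24 ± 0.28 SE, edgeR adjusted p = 0.0445). FRS2, the docking protein that binds FGF receptors, stood at 35.3 and 49.4 CPM in AG and at 21.9 and 19.8 CPM in GG. Its log2 fold change of -1.02 ± 0.34 SE was not called with edgeR (adjusted p = 0.102), although it passed without AG replicate 1 (edgeR adjusted p = 0.0431) and with DESeq2 (adjusted p = 0.0425). Deposited values of both adaptors were not whole numbers, so some of their reads may have been divided with other features, and their levels are uncertain. Without GG replicate 1 or 2 the log2 change of GRB2 was -1.19 and -1.30 and its call ended (edgeR adjusted p = 0.309 and 0.283), as did that of every called member. The spread in those fits is estimated from the AG pair alone.

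The 4 tested members that FGF signalling induces were not called, and several varied widely between replicates. ETV5, a transcription factor induced by ERK, stood at 9.62 and 9.29 CPM in AG and at 3.32 and 0.511 CPM in GG. Both AG libraries lay above both GG libraries, and the log2 fold change of -2.31 ± 0.91 SE was not called with edgeR (adjusted p = 0.149) but passed with DESeq2 (adjusted p = 0.0374). It was -4.19 without GG replicate 1 and -1.54 without GG replicate 2. Its relative ETV4 had no such order, at 6.41 and 0.356 CPM in AG and 0.427 and 1.91 CPM in GG, and its log2 fold change of -1.51 ± 1.38 SE became 1.71 without AG replicate 1. SPRY2, a feedback inhibitor of receptor tyrosine kinases, stood at 3.56 and 2.34 CPM in AG and at 2.04 and 1.09 CPM in GG. SPRY4, of the same family, stood at 1.28 and 2.39 CPM in AG and at 3.42 and 0.818 CPM in GG, with overlapping groups. Neither SPRY gene was called with edgeR (adjusted p = 0.407 and 0.906).

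**Figure D2:**
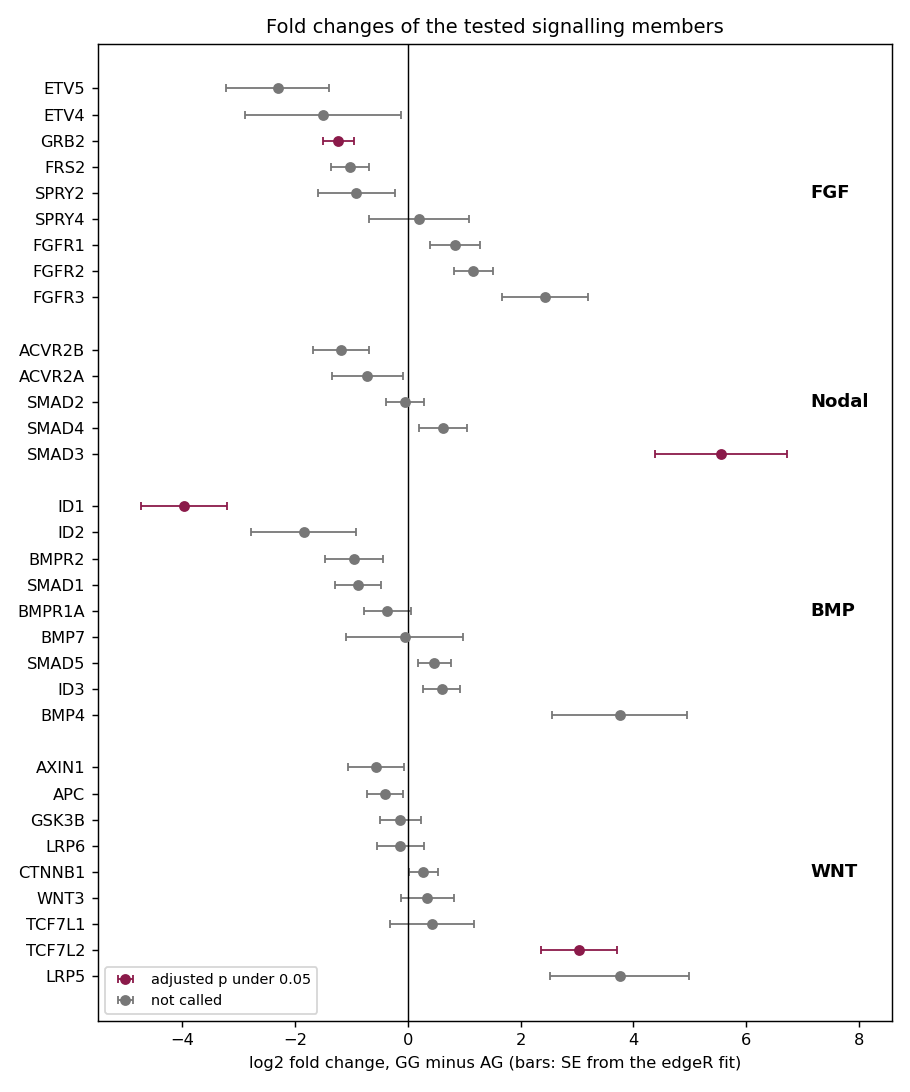
Log2 fold change of GG minus AG for the 32 tested members by pathway, with the SE of the edgeR fit as bars and called members in dark red. SMAD3 and TCF7L2 lie to the right, GRB2 and ID1 to the left. The bars of BMP4, LRP5, ETV4 and ID2, which were not called, are wide, and so is that of SMAD3, which was called. The fitted value of SMAD3 rests on 2 counts in AG.

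In the Nodal pathway, 5 of 8 matched members were tested, 1 was higher in GG and 0 were higher in AG. The secreted factors were sparse and divided the replicates of a group. NODAL, the ligand that supports the pluripotent epiblast, had 38 and 0 counts in AG replicates 1 and 2 and 0 and 11 counts in GG replicates 1 and 2. In each group 1 library had reads of NODAL and the other had none. LEFTY2, a secreted Nodal inhibitor and itself a target of the pathway, had 3 and 0 counts in AG and 1 and 47 counts in GG, a ratio of GG to AG of 10.7 (95% counting interval 3.45 to 53.8) that rests on GG replicate 2.

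The type II receptor genes of the pathway were expressed in both groups. ACVR1B, the type I receptor of activin and Nodal, was scarce, with 2 and 19 counts in AG and 8 and 0 counts in GG. Type II receptor gene ACVR2B stood at 7.76 and 6.81 CPM in AG and at 3.28 and 3.14 CPM in GG, and ACVR2A at 4.92 and 3.96 CPM in AG and 3.66 and 1.74 CPM in GG. Both AG libraries lay above both GG libraries for each, as in 30.7% of all tested genes. Their log2 fold changes were -1.18 ± 0.49 SE and -0.72 ± 0.63 SE, and neither was called with edgeR (adjusted p = 0.167 and 0.479).

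Among the transducers, SMAD3 was higher in GG. This receptor-activated transcription factor (ENSMMUG00000015455) had 0 and 2 counts in AG replicates 1 and 2 and 44 and 112 counts in GG replicates 1 and 2, or 0 and 0.102 CPM against 2.09 and 3.82 CPM. It was nearly undetected in AG, and the ratio of GG to AG was 52.2 (95% counting interval 14.2 to 435; edgeR adjusted p = 0.0388). SMAD2, the closest relative of SMAD3, stood at 29.6 and 41.4 CPM in AG and at 36.5 and 32.1 CPM in GG, with overlapping groups and a log2 fold change of -0.05 ± 0.33 SE (edgeR adjusted p = 0.932). SMAD4, the partner shared with the BMP pathway, stood at 10.4 and 9.19 CPM in AG and at 18.4 and 11.8 CPM in GG, without passing the test (log2 change 0.62 ± 0.43 SE, edgeR adjusted p = 0.367). Without GG replicate 1 or 2 the adjusted p of SMAD3 was 0.158 and 0.262 with edgeR.

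In the BMP pathway, all 9 matched members were tested, 1 was higher in AG and 0 were higher in GG. BMP4, a ligand with roles in extra-embryonic lineages, stood at 0.427 and 0.356 CPM in AG and at 1.04 and 9.62 CPM in GG. Both GG libraries lay above both AG libraries, but GG replicate 2 held 282 of the 304 GG counts. The log2 fold change of 3.76 ± 1.20 SE was not called with edgeR (adjusted p = 0.0943) and was 1.37 without GG replicate 2. It passed with DESeq2 (adjusted p = 0.00860) and with edgeR when no filter on low counts was applied (adjusted p = 0.0317). BMP7, another ligand, stood at 1.14 and 0.254 CPM in AG and at 0.95 and 0.375 CPM in GG, and its groups overlapped.

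No BMP receptor or SMAD gene was called. The type I receptor gene BMPR1A stood at 10.4 and 11.3 CPM in AG and at 7.74 and 9.14 CPM in GG, and the type II receptor gene BMPR2 at 9.83 and 6.50 CPM in AG and 4.80 and 3.61 CPM in GG. Neither was called with edgeR, with log2 fold changes of -0.36 ± 0.41 SE and -0.96 ± 0.51 SE (adjusted p = 0.591 and 0.260). SMAD1 and SMAD5, the receptor-activated transducers of BMP signals, had fold changes of opposite sign. SMAD1 stood at 11.8 and 14.3 CPM in AG and at 6.98 and 7.19 CPM in GG (log2 change -0.88 ± 0.41 SE, edgeR adjusted p = 0.206). SMAD5 stood at 41.2 and 47.3 CPM in AG and at 58.0 and 64.9 CPM in GG (log2 change 0.47 ± 0.29 SE, edgeR adjusted p = 0.315). Neither was called, and both carry deposited values that are not whole numbers.

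Of the 3 ID genes, which encode inhibitors of basic helix-loop-helix transcription factors and are induced by BMP signals, ID1 was higher in AG and the others were not called. ID1 (ENSMMUG00000004403) stood at 149.6 and 33.0 CPM in AG and at 6.03 and 5.59 CPM in GG. The lower AG library was above both GG libraries although the AG pair was far apart, and ID1 was 15.7-fold higher in AG (log2 change -3.97 ± 0.77 SE, edgeR adjusted p = 0.0333). ID2 shared the high value in AG replicate 1, at 72.7 CPM there and 9.45 CPM in AG replicate 2, against 14.7 and 8.18 CPM in GG. Its log2 fold change of -1.85 ± 0.93 SE was not called (edgeR adjusted p = 0.235), passed without AG replicate 2 (adjusted p = 0.00710) and was 0.26 without AG replicate 1. ID3 stood at 114 and 73.8 CPM in AG and at 162 and 123 CPM in GG, with a log2 fold change of 0.60 ± 0.33 SE that was not called (edgeR adjusted p = 0.265). For ID1 the log2 fold change was -2.51 without AG replicate 1 and -4.71 without AG replicate 2, both called, and the call ended without GG replicate 1 or 2 (edgeR adjusted p = 0.171 and 0.189).

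In the WNT pathway, 9 of 11 matched members were tested, 1 was higher in GG and 0 were higher in AG. The ligand gene WNT3 stood at 4.92 and 6.50 CPM in AG and at 6.74 and 7.77 CPM in GG without passing the test (log2 change 0.35 ± 0.47 SE, edgeR adjusted p = 0.661). WNT7A, another ligand, had 0 counts in AG and 7 and 5 counts in GG, which makes it at least 2.68-fold higher in GG against 3 counts over the AG group, and it was too sparse to test. The Frizzled receptor gene FZD7 had 1 count in AG replicate 1 and 0 in the other libraries, and both groups are at or under the limit of detection.

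Neither co-receptor gene was called. LRP5 had 0 and 7 counts in AG and 55 and 79 counts in GG, or 0 and 0.356 CPM against 2.61 and 2.69 CPM. Both GG libraries lay above both AG libraries, with a log2 fold change of 3.76 ± 1.23 SE that was not called with edgeR (adjusted p = 0.10). LRP5 passed without AG replicate 2, when AG held 0 counts of it (edgeR adjusted p = 0.0172), and with DESeq2 (adjusted p = 0.0265). LRP6 stood at 9.12 and 12.0 CPM in AG and at 9.45 and 9.85 CPM in GG, with overlapping groups and a log2 fold change of -0.13 ± 0.42 SE.

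Neither CTNNB1 nor a gene of its destruction complex was called. CTNNB1 stood at 93.1 and 98.9 CPM in AG and at 116 and 117 CPM in GG (log2 change 0.28 ± 0.25 SE, edgeR adjusted p = 0.492). Of the destruction complex, GSK3B stood at 14.9 and 15.6 CPM in AG and at 15.1 and 12.7 CPM in GG, the scaffold gene APC at 27.1 and 27.2 CPM in AG and 21.0 and 19.9 CPM in GG, and the scaffold gene AXIN1 at 8.76 and 6.09 CPM in AG and 4.56 and 5.49 CPM in GG. The log2 fold changes of these 3 lay between -0.56 and -0.14, and none was called with edgeR (adjusted p = 0.833 for GSK3B, 0.425 for APC and 0.482 for AXIN1).

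Of the DNA-binding partners of beta-catenin, TCF7L2 (ENSMMUG00000022799) stood at 1.92 and 0.711 CPM in AG and at 9.93 and 11.5 CPM in GG. The groups were far apart, and TCF7L2 was 8.21-fold higher in GG (log2 change 3.04 ± 0.67 SE, edgeR adjusted p = 0.0422). TCF7L1, known mainly as a repressor of WNT targets, stood at 1.21 and 3.96 CPM in AG and at 3.80 and 3.21 CPM in GG, with overlapping groups (log2 change 0.43 ± 0.74 SE, edgeR adjusted p = 0.734). The log2 change of TCF7L2 was 3.90 without AG replicate 1 and 2.46 without AG replicate 2, both called. Without GG replicate 1 or 2 it was 3.15 and 2.88 and the call ended (edgeR adjusted p = 0.179 and 0.224).

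Several of these genes have close relatives among the members, and the share of each in the counts of its family does not depend on the scaling of the library. The families were picked after the values had been seen, so the shares are given without a test, each with an exact 95% binomial interval. A share depends on transcript length and is compared here between libraries alone. SMAD3 made up 0% (0 to 0.883%) and 0.245% (0.0297 to 0.882%) of the SMAD2 and SMAD3 counts in AG replicates 1 and 2, and 5.41% (3.96 to 7.20%) and 10.7% (8.85 to 12.7%) in GG replicates 1 and 2. LRP5 made up 0% (0 to 2.84%) and 2.87% (1.16 to 5.82%) of the LRP5 and LRP6 counts in AG, and 21.7% (16.8 to 27.2%) and 21.5% (17.4 to 26.0%) in GG. In both families the AG intervals lay below the GG intervals.

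The shares of the BMP transducers and of the ID genes also lay apart between groups. SMAD1 made up 22.3% (19.4 to 25.5%) and 23.2% (20.8 to 25.6%) of the SMAD1 and SMAD5 counts in AG, and 10.7% (9.15 to 12.5%) and 9.99% (8.74 to 11.3%) in GG. Replicates lay within 1 percentage point of each other in both groups. Among the ID genes, ID1 made up 44.5% (43.0 to 45.9%) and 28.4% (26.5 to 30.3%) of the counts in AG, and 3.29% and 4.09% in GG, where ID3 made up 88.7% and 89.9%.

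Other families did not separate as cleanly. TCF7L2 made up 61.4% (45.5 to 75.6%) and 15.2% (8.58 to 24.2%) of the TCF7L1 and TCF7L2 counts in AG, and 72.3% (66.8 to 77.4%) and 78.2% (74.1 to 82.0%) in GG, so the interval of AG replicate 1 overlapped both GG intervals. FGFR3 made up 1.22% and 2.46% of the FGFR1, FGFR2 and FGFR3 counts in AG and 4.33% and 5.13% in GG, and the interval of AG replicate 2 (1.24 to 4.36%) overlapped those of GG replicate 1 (3.16 to 5.77%) and GG replicate 2 (4.05 to 6.38%). ACVR2B made up 61.2% and 63.2% of the ACVR2A and ACVR2B counts in AG and 47.3% and 64.3% in GG, so its groups overlapped.

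**Figure D3:**
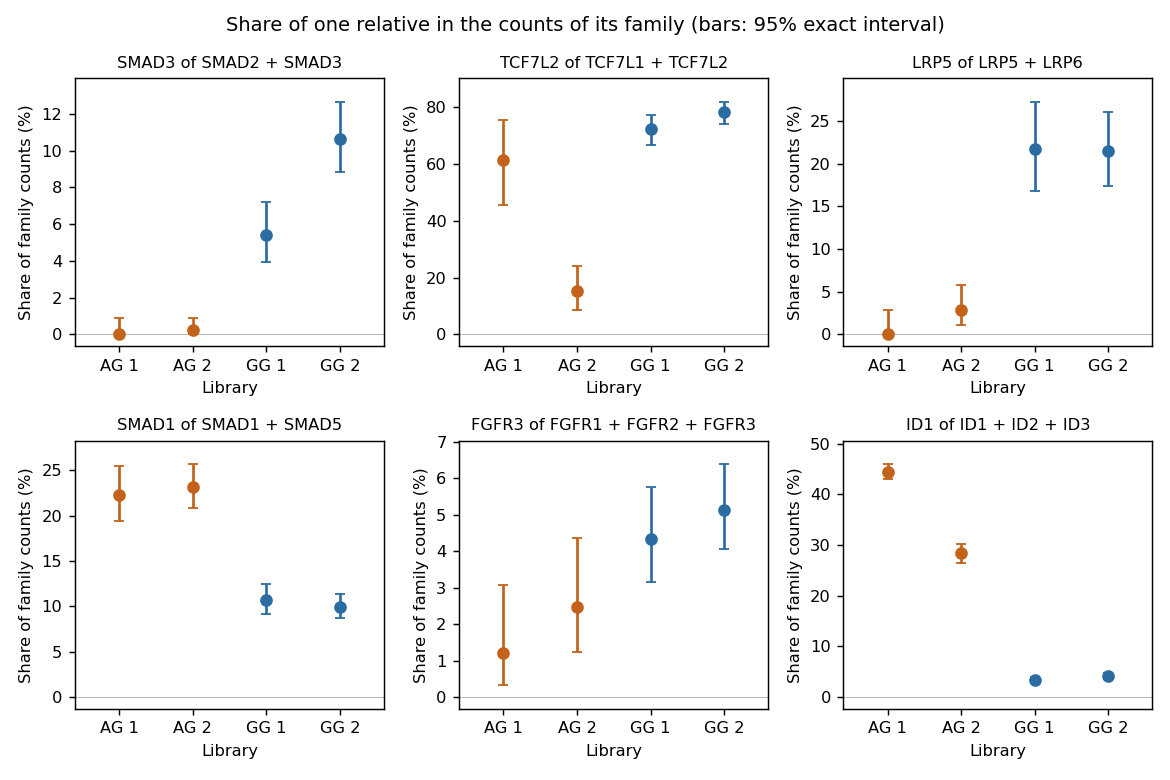
Share of 1 gene in the counts of its family, in percent, for 6 families in the 4 libraries (AG orange, GG blue), with exact 95% binomial intervals that cover counting error alone. The shares of SMAD3, LRP5, SMAD1 and ID1 separate the groups beyond counting error, while the TCF7L2 share of AG replicate 1 reaches into the GG range.

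Replicates of a group differed by a median of 0.45 on the log2 scale in AG and 0.22 in GG over the 32 tested members, computed on log2(CPM + 0.5), against 0.52 and 0.32 over all tested genes. A gap of at least 1 between AG replicates was found in 6 members (18.8%, against 24.4% of all tested genes) and between GG replicates in 4 (12.5%, against 10.6%). The widest AG gap was that of ETV4, at 3.01, followed by ID2 at 2.88 and ID1 at 2.17, all higher in AG replicate 1. Within GG the widest was that of BMP4, at 2.71, higher in GG replicate 2, followed by ETV5 at 1.92, higher in GG replicate 1. Most of these genes are targets or ligands, whereas receptor, co-receptor, adaptor and destruction complex genes differed by at most 0.89 in either group. These genes were picked out after their values had been seen.

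A longer list of 171 further genes of the same pathways placed the members among their neighbours. It was drawn up from knowledge of the pathways, but with earlier results of these data known. Of these, 136 matched and 89 were tested, 7 of them higher in GG and 6 higher in AG with edgeR, or 14.6% against 12.9% of all tested genes. The median log2 fold change of the 89 was 0.01, also with the 5 tested genes that had 0 counts in a group placed at their bounds. By pathway, 3 of 30 FGF genes, 1 of 16 Nodal genes, 0 of 14 BMP genes and 3 of 29 WNT genes were higher in GG, and 2, 0, 2 and 2 were higher in AG.

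Further FGF pathway genes moved both ways. FGF12, an intracellular relative of the secreted FGFs, stood at 0.214 and 0.0508 CPM in AG and at 5.75 and 19.8 CPM in GG (log2 change 6.63 ± 1.07 SE, edgeR adjusted p = 0.0240). ETV1, of the same transcription factor family as ETV4 and ETV5, had 0 counts in AG and 20 and 116 counts in GG, where it was thus at least 30.3-fold higher (edgeR adjusted p = 0.0470). IL17RD, a membrane inhibitor of FGF receptor signalling also known as SEF, had the opposite pattern, with 7.76 and 1.88 CPM in AG and 0 counts in GG, and was at least 72.7-fold higher in AG (edgeR adjusted p = 0.0329). ARAF, a RAF kinase gene named after its value was seen, was higher in GG by 1.70 ± 0.40 SE on the log2 scale (edgeR adjusted p = 0.0489). Without AG replicate 1 the calls of ETV1, IL17RD and ARAF ended (edgeR adjusted p = 0.0549, 0.0542 and 0.0575).

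In the Nodal list, TGFBR1, the type I receptor of TGF-beta, stood at 1.64 and 2.08 CPM in AG and at 7.93 and 10.7 CPM in GG (log2 change 2.32 ± 0.53 SE, edgeR adjusted p = 0.0462). In the BMP list, the ligand gene BMP5 stood at 10.8 and 5.18 CPM in AG and at 0.475 and 0.136 CPM in GG (log2 change -4.72 ± 0.89 SE, edgeR adjusted p = 0.0316). HJV, a BMP co-receptor known from iron regulation, stood at 11.9 and 3.25 CPM in AG and at 0.665 and 0.273 CPM in GG (log2 change -4.02 ± 0.94 SE, edgeR adjusted p = 0.0482). The GG libraries of BMP5 and HJV lay below both AG libraries, as for ID1 and for 30.7% of all tested genes. TGFBR1 and HJV lost their call without AG replicate 1 (edgeR adjusted p = 0.0531 and 0.10).

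In the WNT list, LGR4, RNF43 and WLS were higher in GG. LGR4, an R-spondin receptor, stood at 8.05 and 11.3 CPM in AG and at 35.6 and 59.0 CPM in GG (log2 change 2.28 ± 0.42 SE, edgeR adjusted p = 0.0302). RNF43, a ubiquitin ligase that removes Frizzled receptors and is a target of R-spondins, stood at 0.0712 and 0.152 CPM in AG and at 2.47 and 4.43 CPM in GG (log2 change 4.83 ± 0.88 SE, edgeR adjusted p = 0.0299). WLS, which carries WNT proteins to the cell surface, stood at 0.499 and 0.508 CPM in AG and at 5.32 and 3.92 CPM in GG (log2 change 3.18 ± 0.66 SE, edgeR adjusted p = 0.0376). The Frizzled receptor gene FZD3 went the other way, at 52.5 and 37.8 CPM in AG and 10.8 and 13.6 CPM in GG (log2 change -1.89 ± 0.36 SE, edgeR adjusted p = 0.0325). SP5, a WNT target gene named after its value was seen, was also higher in AG, at 4.49 and 3.20 CPM against 0.190 and 0.477 CPM (log2 change -3.48 ± 0.79 SE, edgeR adjusted p = 0.0458), and lost its call without AG replicate 1 (0.0790). Without GG replicate 1 or 2, none of the 13 called genes of the longer list remained called with edgeR. Over the 4 fits that leave out 1 library, the log2 change ran from 5.41 to 7.83 for FGF12, from -5.79 to -4.08 for BMP5, from -4.75 to -2.81 for HJV, from 4.32 to 5.48 for RNF43 and from -4.32 to -2.98 for SP5.

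**Figure D4:**
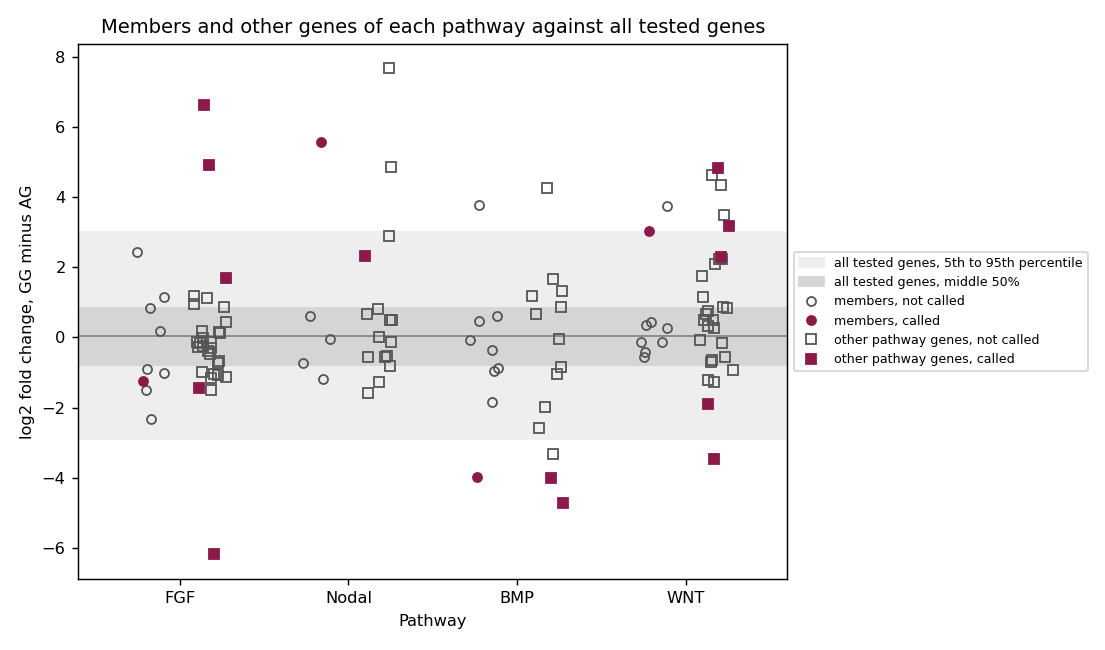
Log2 fold change of GG minus AG for tested members (circles) and further tested genes (squares) of each pathway, with called genes filled in dark red. The wider grey band holds the 5th to 95th percentile of all tested genes and the narrower one their interquartile range. The 5 genes with 0 counts in a group are placed at their lower bound. Most points lie within the band that holds the 5th to 95th percentile of all tested genes, -2.91 to 3.0.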

How the data were processed

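The authors deposited 1 table of estimated counts for Ensembl macaque genes, with no scaling for depth, from 2 AG and 2 GG morula libraries made with a low-input cDNA kit, per the labels' protocols. Per the submitters' processing notes, Salmon 0.12.0, STAR 2.6.0c and Trim Galore were used with the build rheMac8, their roles and order not stated. The annotation release and the strand setting were not given in the sources used here, and reads of overlapping or antisense genes cannot be told apart. From 30.0% to 32.2% of values per library were not whole, as estimates that divide reads between features can be. Among them were values of 8 members (by more than 0.01 counts in a library). These members were FRS2, GRB2, SPRY2, ACVR1B, BMP7, SMAD1, SMAD5 and WNT3.

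Symbols were matched by gene identifier for 14654 of 21314 genes. Counts were rounded and tested over the whole table with edgeR 4.0.16 under R 4.3.3 (quasi-likelihood F test), after TMM normalization of genes kept by filterByExpr (a count of 10 in a group's libraries, a total of 15), with the group as sole term and Benjamini-Hochberg adjustment over 13227 genes. Calls were made at an adjusted p below 0.05. Standard errors are those implied by the F statistic. CPM are rounded counts per 1000000 of the TMM-adjusted total of tested genes. With 0 counts in a group, folds are bounds set by 3 counts over that group, and with 1 to 3 counts the ratio of summed counts over summed adjusted totals carries an exact 95% interval. The script was tested on simulated data.

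The members and lists were chosen with earlier results of these data known. All members are accounted for. Of the further pathway genes, up to 4 called genes per pathway with the smallest p are named, apart from 1 that is not reported here, and others were named after their values were seen. Alternatives were DESeq2 1.42.0, other normalizations and filters, a replicate block, thinned counts and leaving out each library.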

Additional observations from a re-analysis of the deposited data

How the results depend on the processing

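DESeq2 called 3341 of all genes, 5 members toward GG and 4 toward AG, and, of 98 further pathway genes, 11 toward GG and 9 toward AG (11.3% and 11.9% of all genes). Without a filter on low counts edgeR called 2609 of all genes and, of 131 further genes, 12 toward GG and 9 toward AG (6.84% and 7.45% of all genes). At a minimum mean of 10 CPM, where SMAD3 and TCF7L2 are not tested, 0 members and 3 further genes passed toward GG (9.75% of all genes), and 2 members and 2 further genes toward AG (10.7%). Leaving out 1 library in turn, the counts ran from 84 to 3786 for all genes, from 0 to 4 for members higher in GG, from 0 to 3 for members higher in AG, from 0 to 15 for further genes higher in GG and from 0 to 13 for those higher in AG. The 0 called members without GG replicate 1 or 2 stand beside 0.851% and 0.602% of all genes called. In these fits the lone GG library is assumed to vary like the AG pair. SMAD3, TCF7L2, GRB2 and ID1 kept their direction in every setting that tested them, and each was called in all of those except without GG replicate 1 or 2. ID2 reversed without AG replicate 1, to a log2 change of 0.26, and passed the threshold without AG replicate 2, at -2.70. DESeq2 size factors and upper-quartile normalization changed the sign of 0 members. With the replicate block, 2 members passed toward GG and 2 toward AG, among 1697 calls over all genes. TGFBR1, WLS and SP5 then missed the threshold (adjusted p = 0.0570, 0.0547 and 0.0643). Equal replicate numbers had a correlation of deviations across genes of 0.106, and nothing in the labels says that they share a source. Summing the identifiers of a symbol was not run, since each matched gene had 1. Depth limits FGF2, FZD7, SMAD3, LRP5, WNT7A, NODAL, LEFTY2 and ACVR1B, which had 0 counts in at least 1 library.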

Other observations

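Further genes of these pathways, picked after their values had been seen, divided the groups or the replicates without being called in the main fit with edgeR. CFC1, which like TDGF1 encodes a co-receptor of Nodal, had 0 counts in AG and 36 and 875 counts in GG replicates 1 and 2, at least 203-fold higher in GG. It narrowly missed the threshold with edgeR (adjusted p = 0.0545), passed with DESeq2 (0.010), the replicate block (0.0154), no filter on low counts (0.00272) and without GG replicate 1 (0.0419), and had 0.0509 to 0.225 in the other settings that tested it. FOXH1, the DNA-binding partner of SMAD2 and SMAD3, had 0 and 25 counts in AG and 367 and 643 counts in GG (edgeR adjusted p = 0.0594). It passed without AG replicate 1 or 2 (0.00950 and 0.00208), with no filter on low counts (0.00722), at a mean of at least 10 CPM (0.0430), with thinned counts (0.0374) and with the replicate block (0.0405). It did not pass with DESeq2 (0.107), without GG replicate 1 or 2 (0.198 and 0.228) or under the other scalings (0.0592 and 0.0563). The BMP antagonist gene NOG had 7 and 13 counts in AG and 0 in GG, at least 9.96-fold higher in AG (edgeR adjusted p = 0.0525). NOG did not pass with DESeq2 either (adjusted p = 0.0890). ID4, the remaining gene of the ID family, stood at 21.8 and 7.87 CPM in AG and at 2.75 and 2.22 CPM in GG (log2 change -2.57 ± 0.64 SE, edgeR adjusted p = 0.0546). It passed with DESeq2 (adjusted p = 0.00115) and with edgeR when no filter on low counts was applied.

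Other sparse genes came mostly from a single library. FGF13, an intracellular relative of the secreted FGFs, had 51 and 4 counts in AG and 0 in GG, at least 27.4-fold higher in AG. It was not tested in the main fit, and passed with DESeq2 (adjusted p = 0.00347) and with edgeR when no filter on low counts was applied. The WNT inhibitor gene DKK4 had 1 and 49 counts in AG and 1 and 2 counts in GG. The AG to GG ratio was 24.9 (95% counting interval 8.04 to 125) and rests on AG replicate 2. The Nodal receptor gene ACVR1C had 16 and 0 counts in AG and 0 in GG. WNT1 had 0 counts in AG and 9 and 4 counts in GG, and WNT5B had 12 counts in GG replicate 2 and 0 elsewhere.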
